A study of Mus musculus with 6 samples.

Results

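Translation initiation factors are the proteins that bring the ribosome, the initiator tRNA and the start codon of an mRNA together. Their transcripts were compared between fibrosarcoma cells with an shRNA against Rras2 and the same cells with an empty vector. The members were all genes whose symbol in the platform annotation starts with Eif and a digit, leaving out Eif2ak2, with the probe set of highest mean signal where a gene has several. This gave 47 genes of the 19505 measured. Each of the 47 had 1 probe set, so no signal entered their choice, but the family was picked with earlier results of these data known. The RefSeq gene table lists 8 more genes of this name pattern, Eif1, Eif2s1, Eif3g, Eif3j1, Eif4a2, Eif4ebp3, Eif4g1 and Eif5, which were not analysed here.

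All 6 samples were mouse fibrosarcoma cells, a malignant tumor of fibroblast-like cells, of strain C57BL/6 that carry the Q72L form of the RAS-related GTPase Rras2. The knockdown group, shRras2, holds 3 arrays (replicates 4 to 6) of cells transduced with the Rras2-directed shRNA vector sh#89. The control group, pLKO, holds 3 arrays (replicates 1 to 3) of cells transduced with the empty vector. Only 1 shRNA in 1 line of tumor cells was measured, and the group and the order of the replicate numbers cannot be told apart. The question is how the RNA of these mutant cells differs once Rras2 is knocked down. The labels do not say whether replicates were separate cultures, and every p-value here reflects the spread among these arrays alone, which can be technical. In such bulk RNA, fewer cells of a type and less RNA per cell cannot be told apart.

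In the usual order of events, eIF1, eIF1A, eIF3 and eIF2 load the small ribosomal subunit, and eIF2 carries the initiator tRNA in its GTP-bound form. eIF2B recharges eIF2 with GTP, and the eIF2 kinases block that step under stress by phosphorylating eIF2. The eIF4 group brings the mRNA. eIF4E binds the cap, eIF4G is the scaffold, eIF4A unwinds RNA, and the 4E-binding proteins keep eIF4E away from eIF4G unless the growth-signalling kinase complex mTORC1 phosphorylates them. eIF5B then joins the large subunit, which eIF6 otherwise keeps apart. RAS signalling is known to reach this step through the MNK and RSK kinases of the ERK pathway and through mTORC1.

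Values are log2 RMA signals, which compare 1 gene across arrays and not genes with each other. The median over all genes lay between 7.25 and 7.28 on the shRras2 arrays and between 7.22 and 7.24 on the pLKO arrays. Rras2 itself had 9.09, 9.69 and 9.21 on shRras2 arrays 4, 5 and 6, against 10.67, 10.75 and 10.82 on pLKO arrays 1, 2 and 3. The groups did not overlap, and shRras2 array 5 lay nearest to the controls. Rras2 thus fell by 1.41 ± 0.14 on the log2 scale (SE; limma adjusted p = 0.00163). Its exact two-sided permutation p was 0.1, and 3 arrays against 3 allow none smaller. Of 10 fibroblast markers, 6 lay above the 95th percentile of the negative-control probe sets (7.92) in both groups, among them Vim, Fn1, Col3a1 and Col1a1, while Col1a2, Thy1, Lum and Dcn lay below it in both. Of these 10, Col3a1, Pdgfrb and Dcn rose, and the summed linear signal of the list was 34217 to 34828 in shRras2 against 31063 to 31649 in pLKO. All 5 epithelial, 4 immune and 4 endothelial markers lay below it in both groups. Of 10 skeletal muscle markers 9 rose, and their summed linear signal was 4921 to 9131 in shRras2 against 941 to 1164 in pLKO. Of the 10, 0 lay above the percentile in both groups, and Myod1 and Des lay below it in both. The other muscle markers lay above it in shRras2 alone, so all pLKO means of this list lay below it. The part of this fibroblast and muscle signal in the differences given below was not tested.

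Of the 47 initiation factor genes, 5 fell in shRras2 (10.6%), 0 rose and 42 did not pass the threshold of 0.05 on the limma adjusted p. Over all 19505 genes 2.22% passed as lower, 2.99% as higher and 5.21% in either direction. Among the 8131 genes with a mean above the negative controls' 95th percentile, 4.11% passed as lower and 4.44% as higher. The 5 were Eif4ebp2, Eif4ebp1, Eif4g3, Eif4e3 and Eif3i, and 4 of them belong to the eIF4 group. That group is the largest by factor, with 14 of the 47 genes, and 28.6% of it was called lower. At an unadjusted p under 0.05 in limma there were 11 of the 47 genes, all of them lower. Over all genes, 10.0% were lower at that p, and 19.1% were at that p in either direction. With arrays centred on their medians, 3.05% of all genes passed as lower (595 lower and 514 higher, against 433 and 584 without centring), and 6 members passed as lower and 0 as higher.

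**Figure D1:**
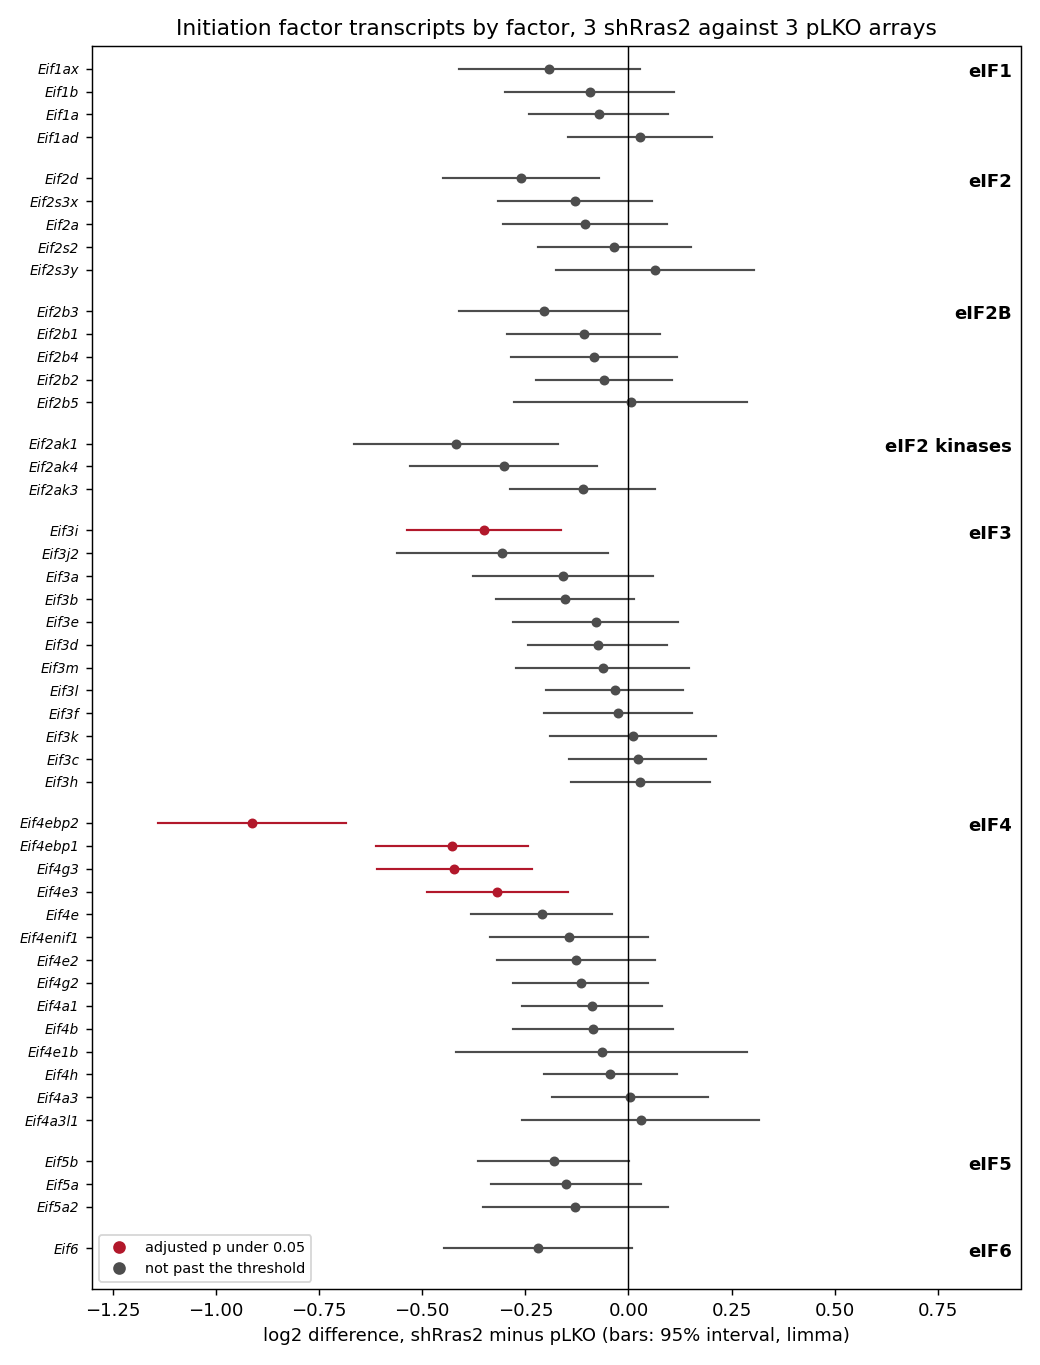
Log2 differences (x axis, shRras2 minus pLKO) of the 47 initiation factor genes, grouped by factor, with 95% intervals from limma (bars) over 3 shRras2 and 3 pLKO arrays. The 5 red genes passed the threshold, with Eif4ebp2 at -0.91 the farthest from 0, and 39 of the 47 points lie below 0.

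Small differences in the same direction ran through most of the family. The log2 difference was below 0 for 39 of 47 genes (83.0%), against 53.2% of all genes and 55.3% of the genes above the negative controls' 95th percentile. The median difference was -0.11, against -0.01 over all genes, and the values ran from -0.91 to 0.06. All 3 shRras2 arrays lay below all 3 pLKO arrays for 23 of the 47 genes (48.9%), and for 0 genes they lay above. Over all genes the groups did not overlap in 13.9% as lower and 11.6% as higher, and 22.7% of the genes above that percentile did so as lower. The median SE of the members was 0.08, so differences of the size of the median were close to the error of a single gene. A median over members has no test here, because the family was chosen with results known.

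**Figure D2:**
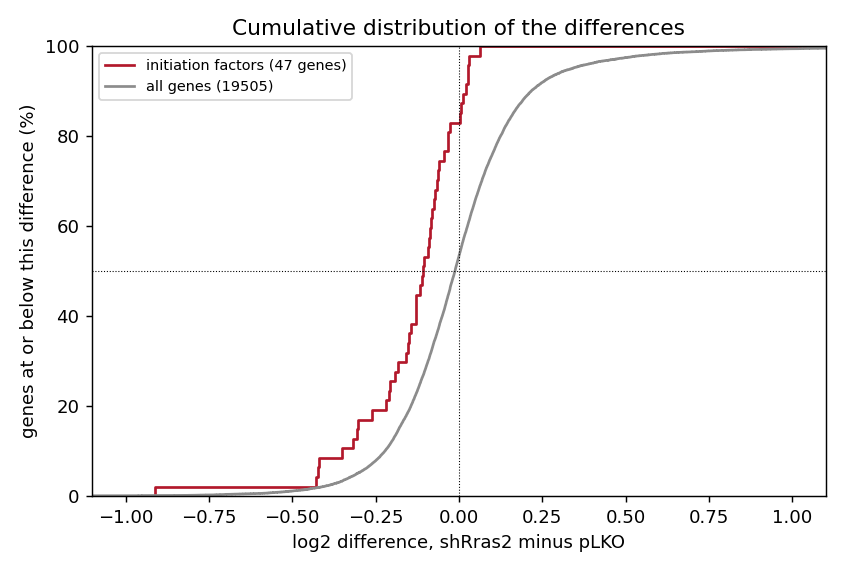
Share of genes (y axis, %) at or below each log2 difference (x axis, shRras2 minus pLKO) for the 47 initiation factors (red) and all 19505 genes (grey). The red curve crosses 50% at -0.11 and the grey curve at -0.01, and the red curve ends at 0.06 while the grey one has a long upper tail.

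Array by array, the members' median deviation from each gene's mean over the 6 arrays was -0.09 on shRras2 array 4, -0.03 on array 5 and -0.03 on array 6, against 0.06, 0.03 and 0.06 on pLKO arrays 1, 2 and 3. Of the 47 genes, 43, 30 and 34 lay below their own mean on the shRras2 arrays 4, 5 and 6, against 10, 11 and 9 on the pLKO arrays 1, 2 and 3. The shift was therefore largest on shRras2 array 4, and the 3 shRras2 arrays were not alike in it. Over all genes the median deviation was -0.007, -0.006 and -0.003 on shRras2 arrays 4, 5 and 6. It was 0.0009, 0.005 and 0.013 on pLKO arrays 1, 2 and 3. Over the 5 called genes the median deviation was -0.21, -0.21 and -0.29 on shRras2 arrays 4, 5 and 6. These genes were called on the same arrays, and the call favours genes low on all 3 shRras2 arrays. Their values therefore do not bear on the place of array 4 in the shift of the family.

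**Figure D3:**
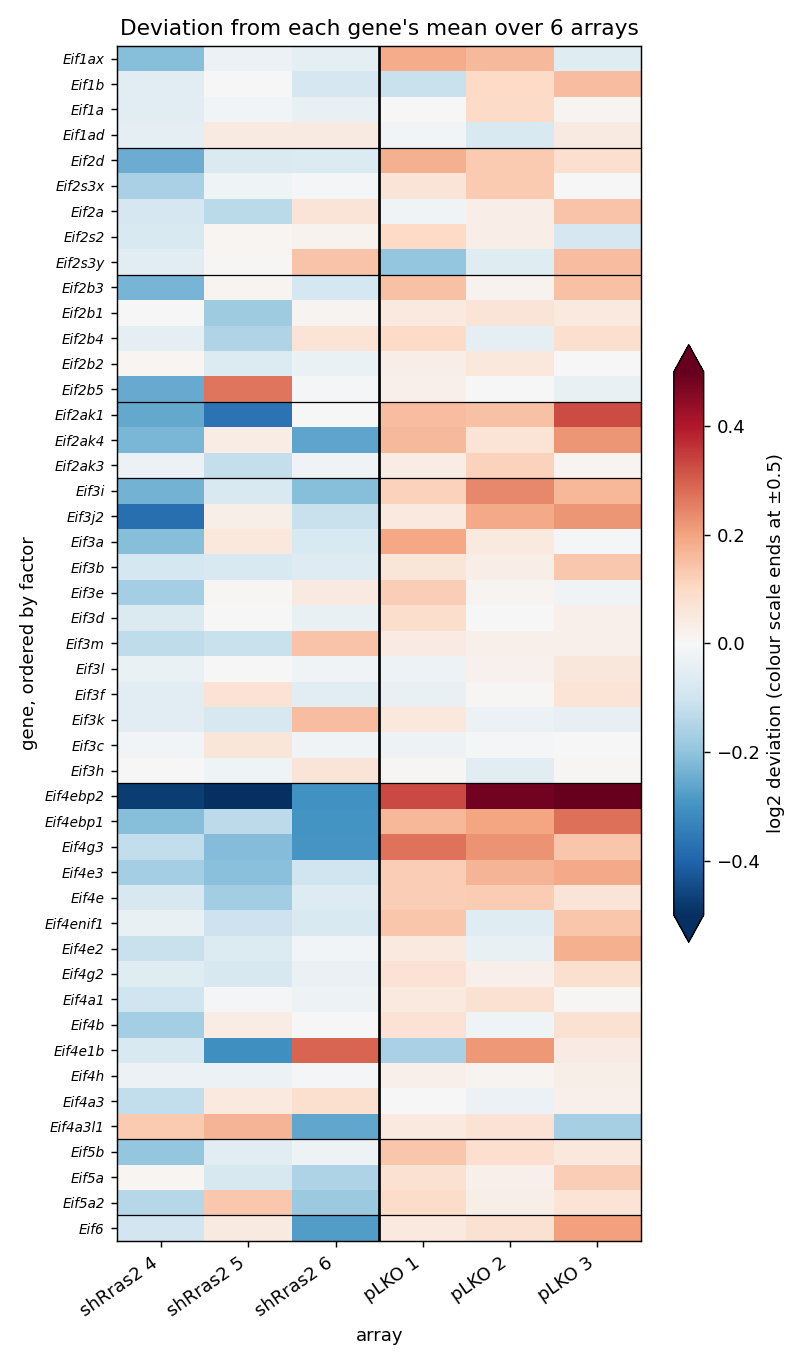
Log2 deviation of each initiation factor gene (rows, ordered by factor) from its mean over the 6 arrays, for shRras2 arrays 4 to 6 and pLKO arrays 1 to 3 (columns). Blue is below and red above the gene's mean, and array 4 has 43 of 47 genes below their mean. The block of Eif4ebp2, Eif4ebp1, Eif4g3, Eif4e3 and Eif4e has the same sign on all arrays of a group. All of these but Eif4e were called on these same arrays, so that agreement is partly set by the call.

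The repressors of eIF4E held the 2 genes that differed most. Eif4ebp2 (probe set TC1000003224.mm.2), which encodes the translation repressor 4E-BP2, had 8.59, 8.48 and 8.77 on the shRras2 arrays, against 9.40, 9.55 and 9.62 on the pLKO arrays. The highest shRras2 array lay well under the lowest pLKO array. The signal fell to 53.2% of the pLKO level (95% interval 45.4 to 62.3%), a log2 difference of -0.91 ± 0.10 (SE; limma adjusted p = 0.00209), and the gene passed in all 6 fits that left out 1 array. Eif4ebp1 (TC0800000353.mm.2), which encodes 4E-BP1, the best known mTORC1 substrate of the family, had 9.65, 9.73 and 9.56 on the shRras2 arrays, against 10.03, 10.06 and 10.14 on the pLKO arrays. Its groups did not overlap either, and the signal fell to 74.3% of the pLKO level (95% interval 65.4 to 84.5%; limma adjusted p = 0.0206). Eif4ebp1 passed in 1 of the 6 fits without 1 array, that without shRras2 array 5, with adjusted p up to 0.0837 in the others. The third member, Eif4enif1, which encodes the eIF4E transporter 4E-T, had a difference of -0.14 ± 0.08 (SE) and did not pass (limma adjusted p = 0.409).

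Within each array, Eif4ebp2 was set against Eif4ebp1, a comparison chosen after the values were seen. Relative to the pLKO mean, the log2 ratio of Eif4ebp2 to Eif4ebp1 was -0.51, -0.70 and -0.25 on the shRras2 arrays, against -0.08, 0.04 and 0.04 on the pLKO arrays. The mean was -0.48, the groups did not overlap, and the exact two-sided permutation p of 0.1 (adjusted over 3 such pairs, 0.1) cannot pass the threshold at this number of arrays. The ratio of Eif4ebp2 to Eif4e was -0.74, -0.77 and -0.59 on the shRras2 arrays, against -0.14, 0.00 and 0.14 on the pLKO arrays, a mean change of -0.70 (exact permutation p = 0.1, adjusted 0.1). For both ratios each shRras2 array lay below each pLKO array. Eif4ebp2 had the largest fall of the members, so setting it against either gene fixed the sign of the mean change beforehand.

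**Figure D4:**
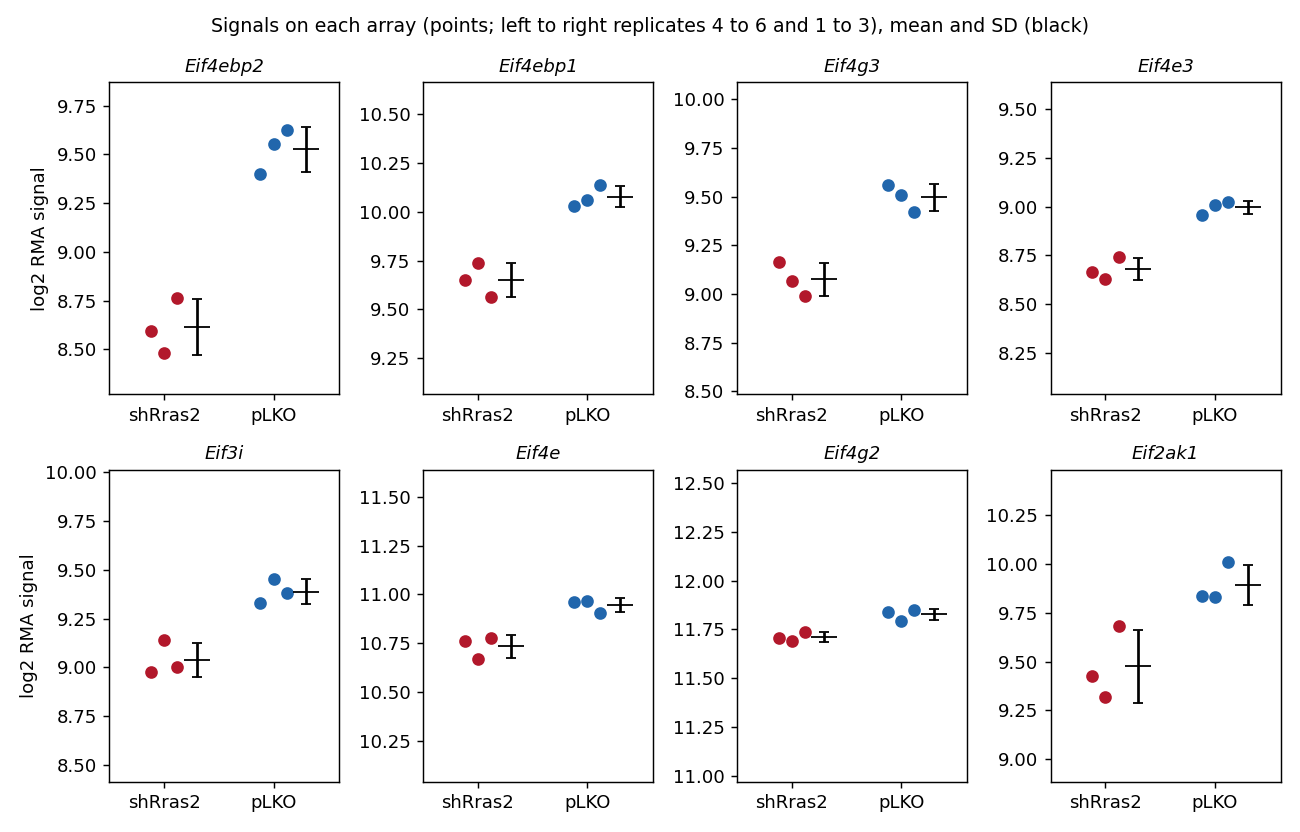
Log2 RMA signal (y axis) of the 5 called genes and of Eif4e, Eif4g2 and Eif2ak1 on the 3 shRras2 arrays (red) and the 3 pLKO arrays (blue), with the mean and SD of each group in black. All panels span the same log2 range, none of the 8 genes has overlapping groups, and the gap is widest for Eif4ebp2. The 8 belong to the 23 of 47 genes (48.9%) whose groups did not overlap, as lower, against 13.9% of all genes.

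Among the cap-binding proteins, the fall was called for Eif4e3 alone. Eif4e3 (TC0600003602.mm.2), a cap-binding relative of eIF4E, had 8.67, 8.63 and 8.74 on the shRras2 arrays, against 8.96, 9.01 and 9.03 on the pLKO arrays. The groups were tight and apart, at 80.2% of the pLKO level (95% interval 71.2 to 90.3%), but the limma adjusted p of 0.0466 was just inside the threshold and the call was lost in each of the 6 fits without 1 array (adjusted p 0.0899 to 0.141). Eif4e (TC0300001416.mm.2), the main cap-binding protein, had 10.76, 10.67 and 10.78 on the shRras2 arrays, against 10.96, 10.97 and 10.90 on the pLKO arrays. These groups did not overlap, yet the difference of -0.21 ± 0.08 (SE) did not pass (limma adjusted p = 0.168). Whether Eif4e3 and Eif4e differ in their change was not tested. Eif4e2, which encodes the cap-binding repressor 4EHP, differed by -0.13 ± 0.08 (adjusted p = 0.473), and the oocyte form Eif4e1b, below the negative controls' 95th percentile in both groups, by -0.06 ± 0.16 (adjusted p = 0.88).

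Of the 2 scaffolds measured, Eif4g3 fell. Eif4g3 (TC0400001715.mm.2), which encodes eIF4GII, had 9.16, 9.07 and 8.99 on the shRras2 arrays, against 9.56, 9.51 and 9.42 on the pLKO arrays. This put it at 74.6% of the pLKO level (95% interval 65.5 to 85.0%; limma adjusted p = 0.0231), with no overlap between the groups. Its call stayed in 2 of the 6 fits without 1 array, those without shRras2 array 4 or 5, and adjusted p rose to 0.0949 in the others. Eif4g2, which encodes DAP5, a scaffold that lacks the eIF4E-binding site, had 11.71, 11.69 and 11.74 on the shRras2 arrays, against 11.84, 11.79 and 11.85 on the pLKO arrays. Its difference of -0.12 ± 0.07 (SE) did not pass (limma adjusted p = 0.443). The ratio of Eif4g3 to Eif4g2 was -0.21, -0.29 and -0.42 on the shRras2 arrays relative to the pLKO mean, against 0.05, 0.04 and -0.09 on the pLKO arrays (exact permutation p = 0.1, adjusted 0.1). Here too a called gene was set against a gene with a smaller difference, which fixed the sign of the mean change beforehand.

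The RNA-unwinding part of the eIF4 group differed little. Eif4a1, the helicase of cap-dependent initiation, had 12.13, 12.22 and 12.20 on the shRras2 arrays, against 12.28, 12.30 and 12.23 on the pLKO arrays. The difference was -0.09 with a 95% interval of -0.26 to 0.08 (limma adjusted p = 0.581). Eif4a3, the helicase of the exon junction complex, differed by 0.00 ± 0.08 (SE), and Eif4a3l1, a gene close in sequence to it, by 0.03 ± 0.13, with the pLKO mean below the negative controls' 95th percentile. Signals of such close copies may be shared between their probes. The helicase cofactors Eif4b and Eif4h differed by -0.09 ± 0.09 and -0.04 ± 0.07, and neither passed (adjusted p = 0.656 and 0.803). The groups of Eif4a1 and Eif4h did not overlap but lay close, and those of Eif4a3, Eif4a3l1 and Eif4b overlapped.

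RefSeq promoter sequence (GRCm38.p6, 250 bases before to 50 after a listed start) was matched by symbol for 36 of the 47 genes, including 2 of the 5 that fell. The 250 bases before the start are printed for these 2, Eif4ebp2 and Eif4g3, and for Eif4e and Eif4a1, the cap-binding and helicase partners that did not pass. Where a gene has several listed starts, the window of the most downstream one is shown, 5′ to 3′ on the gene's strand. Capitals mark an E-box (CACGTG, the site of MYC and related factors) or the ETS string (CCGGAAG, read here as CTTCCGG on the other strand). This string is a single form of the ETS site, and other or shorter forms were not searched for or marked.
Eif4ebp2 (chr10:61452670-61452919, minus strand): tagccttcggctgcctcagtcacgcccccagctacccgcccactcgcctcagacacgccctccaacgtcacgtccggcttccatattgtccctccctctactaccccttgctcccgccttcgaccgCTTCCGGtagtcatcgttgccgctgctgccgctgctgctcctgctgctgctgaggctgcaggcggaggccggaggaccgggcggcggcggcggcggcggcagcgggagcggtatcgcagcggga
Eif4g3 (chr4:137993206-137993455, plus strand): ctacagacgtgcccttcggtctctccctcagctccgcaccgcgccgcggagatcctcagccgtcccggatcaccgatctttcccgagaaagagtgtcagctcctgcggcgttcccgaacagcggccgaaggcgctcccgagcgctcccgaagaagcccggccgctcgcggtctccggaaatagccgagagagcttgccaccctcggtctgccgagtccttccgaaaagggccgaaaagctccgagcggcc
Eif4e (chr3:138527018-138527267, plus strand): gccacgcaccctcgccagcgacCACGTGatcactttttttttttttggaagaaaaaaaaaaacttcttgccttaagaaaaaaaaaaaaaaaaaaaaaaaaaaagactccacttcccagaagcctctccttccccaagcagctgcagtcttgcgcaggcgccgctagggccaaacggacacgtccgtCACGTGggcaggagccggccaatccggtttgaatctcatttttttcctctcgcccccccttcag
Eif4a1 (chr11:69672424-69672673, minus strand): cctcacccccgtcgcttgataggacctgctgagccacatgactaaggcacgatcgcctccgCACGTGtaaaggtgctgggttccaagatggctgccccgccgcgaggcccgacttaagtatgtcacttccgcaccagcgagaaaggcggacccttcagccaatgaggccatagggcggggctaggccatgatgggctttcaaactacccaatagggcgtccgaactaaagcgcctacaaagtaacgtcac

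In these windows Eif4e held 2 E-boxes, beginning 228 and 64 bases before the start, and Eif4a1 held 1, beginning 189 bases before it. Eif4ebp2 held 1 ETS string 124 bases before the start and no E-box, and Eif4g3 held neither of these strings. No hits overlapped each other. Over the full windows and both strands, an E-box was present in 9 of the 36 initiation factor genes (25.0%), against 9.26% of 15691 genes with a promoter and 12.3% of the 6668 of them above the negative controls' 95th percentile. The ETS string was present in 15 of 36 (41.7%), against 13.2% and 22.2%, and the cyclic AMP element TGACGTCA in 0 of 36, against 2.63% and 3.76%. The median log2 difference was -0.09 for members with an E-box and -0.10 for members without. It was again -0.09 and -0.10 for members with and without the ETS string. Over all genes with a promoter it was -0.02 with and -0.01 without an E-box, and -0.03 and -0.01 for the ETS string. Among those above the percentile, these medians were -0.04 and -0.02, and -0.05 and -0.02. Whether any of these medians differ was not tested. A match is a string of letters and no evidence of binding, and the motifs were picked with results known.

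The largest complex, eIF3, had 1 call among its 12 measured subunits. Eif3i (TC0400003604.mm.2), which encodes a subunit of the eIF3b-eIF3g-eIF3i module, had 8.98, 9.14 and 9.00 on the shRras2 arrays, against 9.33, 9.46 and 9.38 on the pLKO arrays. It stood at 78.5% of the pLKO level (95% interval 69.0 to 89.3%) with a limma adjusted p of 0.0461, just inside the threshold, and passed in 1 of the 6 fits without 1 array, that without shRras2 array 5 (adjusted p up to 0.15 in the others). Eif3j2, a copy of the loosely bound subunit gene Eif3j1 with which it may share signal, had 9.15, 9.56 and 9.42 on the shRras2 arrays, against 9.58, 9.72 and 9.75 on the pLKO arrays. Its groups nearly touched, and the difference of -0.31 ± 0.11 (SE) did not pass (limma adjusted p = 0.177).

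The other 10 subunits of eIF3 lay between -0.16 and 0.03. The scaffold genes Eif3a and Eif3b differed by -0.16 ± 0.10 and -0.15 ± 0.07, the cap-contacting subunit gene Eif3d by -0.07 ± 0.07 and Eif3e by -0.08 ± 0.09 (SE). The subunit genes Eif3m, Eif3l and Eif3f differed by -0.06 ± 0.09, -0.03 ± 0.07 and -0.03 ± 0.08. Eif3c, Eif3h and Eif3k lay slightly above 0, at 0.02, 0.03 and 0.01, and slightly below it after median centring. The median over the complex was -0.07, and 4 of the 12 genes, Eif3i, Eif3j2, Eif3b and Eif3d, had groups that did not overlap (33.3%, against 13.9% of all genes and 22.7% of the genes above the negative controls' 95th percentile, as lower).

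None of the 3 eIF2 kinase genes passed, and Eif2ak1 was the nearest to the threshold. Eif2ak1, which encodes HRI, the kinase of heme and mitochondrial stress, had 9.43, 9.32 and 9.68 on the shRras2 arrays, against 9.84, 9.83 and 10.01 on the pLKO arrays. The groups did not overlap, and the difference of -0.42 ± 0.11 (SE) was close to that of the called Eif4g3 but had a larger SE, and it lay just outside the threshold (limma adjusted p = 0.0656). It passed when arrays were centred on their median (adjusted p = 0.0447) and when the dimmest 30% of genes were left out (0.0421). It also passed with the trend and robust settings of eBayes (0.0085) and without shRras2 array 6 (0.0473). In the other alternatives Eif2ak1 did not pass (limma adjusted p 0.0656 to 0.196). Eif2ak4, which encodes GCN2, the sensor of amino acid shortage, had 9.34, 9.61 and 9.30 on the shRras2 arrays, against 9.73, 9.64 and 9.79 on the pLKO arrays. Its difference of -0.30 ± 0.10 did not pass (limma adjusted p = 0.137), and array 5 lay almost level with the controls. It passed without that array (adjusted p = 0.0409) and with the trend and robust settings. In the other alternatives Eif2ak4 did not pass (limma adjusted p up to 0.327). Eif2ak3, which encodes PERK, the kinase of endoplasmic reticulum stress, differed by -0.11 ± 0.08 (adjusted p = 0.492).

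No gene of eIF2 itself or of its exchange factor eIF2B passed. Eif2d, which encodes a factor that can deliver initiator tRNA outside the usual route, had 9.10, 9.27 and 9.27 on the shRras2 arrays, against 9.52, 9.47 and 9.43 on the pLKO arrays, without overlap. Its difference was -0.26 ± 0.08 (SE; limma adjusted p = 0.126). Eif2s3x, which encodes the gamma subunit, had 12.15, 12.29 and 12.30 on the shRras2 arrays, against 12.38, 12.44 and 12.31 on the pLKO arrays (-0.13 ± 0.08, adjusted p = 0.451). Its shRras2 array 6 lay next to pLKO array 3. The beta subunit gene Eif2s2 differed by -0.03 ± 0.08, and Eif2a, a separate initiator-tRNA-binding protein, by -0.10 ± 0.09. Eif2s3y, a close copy of Eif2s3x, lay below the negative controls' 95th percentile on all arrays, at 4.51 to 4.71 in shRras2 and 4.37 to 4.72 in pLKO. These values also lay below the negative controls' median of 5.02, so its probe set showed no visible signal of Eif2s3x.

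In eIF2B the largest difference was in Eif2b3, which encodes the gamma subunit, with 8.73, 8.98 and 8.87 on the shRras2 arrays, against 9.11, 8.98 and 9.11 on the pLKO arrays. The values of shRras2 array 5 and pLKO array 2 were equal at 2 decimals, and the difference of -0.21 ± 0.09 did not pass (limma adjusted p = 0.259). Eif2b1, the alpha subunit gene, had 9.26, 9.08 and 9.27 on the shRras2 arrays, against 9.31, 9.33 and 9.31 on the pLKO arrays (-0.11 ± 0.08, adjusted p = 0.534), with shRras2 array 5 the lowest. Eif2b2 differed by -0.06 ± 0.07. Eif2b4 had a shRras2 mean below the negative controls' 95th percentile (-0.08 ± 0.09). Eif2b5, the catalytic subunit gene, lay below it in both groups (0.01 ± 0.12), where array signals are compressed.

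The eIF1, eIF5 and eIF6 groups, formed by gene symbol, had 0 calls among 8 genes in limma, with 0 of them at an unadjusted p under 0.05. Eif1ax, which encodes eIF1A, had 10.26, 10.44 and 10.43 on the shRras2 arrays, against 10.66, 10.63 and 10.41 on the pLKO arrays, with overlapping groups and a difference of -0.19 ± 0.10. Eif1a, a close copy that may share signal with it, differed by -0.07 ± 0.07, and Eif1ad by 0.03 ± 0.08. Eif1b, a relative of the start-codon factor eIF1, had 9.24, 9.29 and 9.21 on the shRras2 arrays, against 9.19, 9.39 and 9.45 on the pLKO arrays (-0.09 ± 0.09), and its groups overlapped. Eif5b, the GTPase of subunit joining, had 9.41, 9.55 and 9.58 on the shRras2 arrays, against 9.74, 9.69 and 9.65 on the pLKO arrays, and differed by -0.18 ± 0.08 (limma adjusted p = 0.266). Eif5a, whose product carries the modified lysine hypusine, had 13.28, 13.19 and 13.11 on the shRras2 arrays, against 13.34, 13.29 and 13.39 on the pLKO arrays (-0.15 ± 0.08, adjusted p = 0.356). The groups of Eif5b and Eif5a did not overlap but lay close, and the related Eif5a2 differed by -0.13 ± 0.10 with overlap. Eif6, the factor that keeps the large subunit from joining early, had 11.00, 11.14 and 10.82 on the shRras2 arrays, against 11.15, 11.17 and 11.30 on the pLKO arrays (-0.22 ± 0.10, adjusted p = 0.279).

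Other genes of translation were followed through 6 lists, with 69 of 76 listed genes analysed, of which 1 fell (1.45%) and 2 rose (2.90%), no more than the 2.22% and 2.99% of all genes. All 3 were in the list of mTORC1, S6K and MNK regulators (14 genes analysed). Deptor, which encodes an inhibitor of mTOR, had 9.45, 9.76 and 9.49 on the shRras2 arrays, against 8.86, 8.68 and 8.90 on the pLKO arrays. It rose 1.68-fold with no overlap (limma adjusted p = 0.00609). Pdcd4, which encodes an inhibitor of the eIF4A helicase, had 9.73, 9.68 and 9.94 on the shRras2 arrays, against 9.19, 9.16 and 8.91 on the pLKO arrays, a rise of 1.62-fold (adjusted p = 0.00882). Rps6ka3, which encodes the ERK-activated kinase RSK2, had 8.62, 8.77 and 8.64 on the shRras2 arrays, against 9.19, 9.19 and 9.12 on the pLKO arrays, and fell to 71.1% of the pLKO level (adjusted p = 0.0104). Each of these 3 calls stayed in all 6 fits without 1 array.

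**Figure D5:**
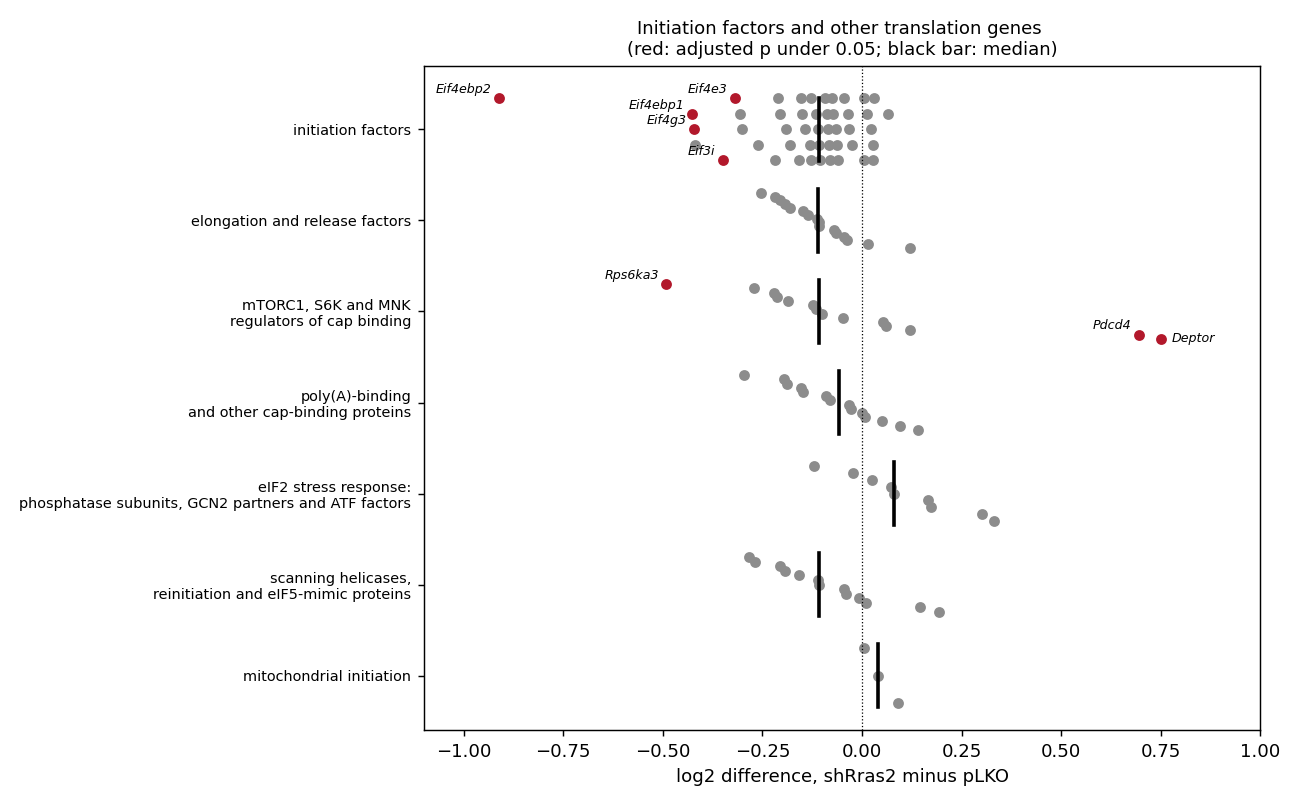
Log2 differences (x axis, shRras2 minus pLKO) of the 47 initiation factors and of 69 other translation genes in 6 lists (rows), with calls in red and the median of each row as a black bar. The calls outside the initiation factors are the rises of Deptor and Pdcd4 and the fall of Rps6ka3, and the eIF2 stress response row has its median at 0.08.

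The other regulators did not pass. Mtor differed by -0.10 ± 0.10 (SE), and the eIF4E kinase genes Mknk1 and Mknk2 by -0.05 ± 0.10 and -0.19 ± 0.10 (limma adjusted p = 0.637, 0.852 and 0.355). The median of this list of 14 was -0.11, with 5 genes at an unadjusted p under 0.05 in limma, 3 of them lower. The 16 elongation and release factors had 0 calls, 3 genes at an unadjusted p under 0.05, all lower, and a median of -0.11, with Eef2, the translocation factor, at -0.05 ± 0.07. The 14 poly(A)- and cap-binding genes had 0 calls, 2 at an unadjusted p under 0.05, both lower, and a median of -0.06. The 13 genes of scanning, reinitiation and eIF5-mimic proteins had 0 calls, 5 at an unadjusted p under 0.05, 4 of them lower, and a median of -0.11. In the eIF2 stress response list the median was 0.08, with 0 calls among 9 genes and 2 at an unadjusted p under 0.05, both higher. The groups did not overlap, as higher, for 4 of these 9 genes, Atf4 among them, and for 0 as lower. Over all genes 11.6% did so as higher and 13.9% as lower. Over all genes 19.1% were at an unadjusted p under 0.05. The median of the initiation factors (-0.11) was thus shared by 3 of the 6 lists. The elongation and release factors had 87.5% of their differences below 0 and 37.5% with groups lower without overlap, against 83.0% and 48.9% in the initiation factors, and whether these shares differ was not tested. Atf4, the transcription factor whose mRNA is translated more when eIF2 is phosphorylated, had 11.17, 11.16 and 11.14 on the shRras2 arrays, against 11.12, 11.02 and 11.09 on the pLKO arrays (0.08 ± 0.07, adjusted p = 0.622). The 3 mitochondrial initiation genes had 0 calls, 0 at an unadjusted p under 0.05 and a median of 0.04.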

How the data were processed

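Total RNA of each of the 6 samples was hybridised to 1 Affymetrix array. The authors deposited log2 values by probe set. The submitters' processing notes name RMA and R 3.6.3. RMA subtracts background, makes the distributions of the arrays equal and combines the probes of a set. No source used here gives the package version or the build behind the annotation, and probe set coordinates are therefore left out.

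Of 29129 probe sets, 19572 had 1 gene symbol, 0 several and 2634 of the 22206 transcript probe sets none. The brightest probe set was kept for 55 genes with several, which left 19505 genes, with no filter. All 47 members' Entrez identifiers were found in the RefSeq table of GRCm38.p6, used for names, with 47 symbols current. Groups were compared by limma (version 3.58.1, R version 4.3.3), using lmFit and eBayes without covariates, on 4 residual and 4.85 prior degrees of freedom, and two-sided p-values were adjusted by Benjamini-Hochberg over all 19505 genes. Differences are shRras2 minus pLKO, with SEs from limma. The number of arrays limits the precision.

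The 95th percentile of 5222 negative-control probe sets over the 6 arrays was 7.92, and log2 differences of genes below it are compressed. The members, lists, motifs and tests were chosen with earlier results of these data known. Any member could be named. Values per array are given for members past the threshold, for up to 2 per factor with the largest differences, and for Eif4e, Eif4a1, Eif4g2, Eif4ebp1, Eif4ebp2 and Eif5a. From the other lists, genes past the threshold and Mtor, Mknk1, Mknk2, Pdcd4, Eef2 and Atf4 are named, and Rras2 always. Eif2s1, Eif4g1 and Rps6kb1 were also in this rule and were not analysed here. The method was tested on simulated data with independent noise for each gene, which holds no effect shared by the genes of an array. Alternatives were median centring, cyclic loess, a filter that dropped the dimmest 30% of genes, averaging probe sets, eBayes with trend and robust settings, array weights, and leaving out each array in turn.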

Additional observations from a re-analysis of the deposited data

How the results depend on the processing

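The count of lower initiation factors moved with the processing more than their direction. It was 5, with 3 after cyclic loess (Eif4ebp2, Eif4ebp1 and Eif4g3), 9 with the trend and robust settings of eBayes (adding Eif2ak1, Eif2ak4, Eif2d and Eif4e), and 1 to 5 when 1 array was left out. It was 1 without pLKO replicate 1, 2 or 3, 2 without shRras2 replicate 4 or 6 and 5 without shRras2 replicate 5, where Eif2ak4 passed and Eif4e3 did not. In those 6 fits 112 to 452 of all genes passed as lower and 280 to 684 as higher, against 433 and 584 with 6 arrays and 943 and 965 with the trend and robust settings. No initiation factor passed as higher in limma under any of the 12 alternatives. Eif4ebp2 passed in all 12 (adjusted p up to 0.0145). Eif4ebp1 and Eif4g3 passed in all 6 alternatives that kept every array, and Eif3i and Eif4e3 in 5 of the 6, being lost after cyclic loess (adjusted p = 0.0572 and 0.0568). The members' median of -0.11 was -0.15 after median centring, which moved the median of all genes from -0.01 to -0.05, and -0.089 to -0.13 when 1 array was left out. The fall of Rras2 passed in all 12. Differences below 0 numbered 39 of 47, with 46 after median centring (63.3% of all genes) and 38 after cyclic loess (49.7%). Values near 0 changed sign for 11 initiation factors and Mknk1, none of them past the threshold. After median centring Eif1ad was at -0.011, Eif2b5 at -0.034, Eif3c at -0.017, Eif3h at -0.011, Eif3k at -0.028, Eif4a3 at -0.035 and Eif4a3l1 at -0.0096. With array weights Eif2b5 was at -0.029, Eif4a3l1 at -0.037 and Eif4e1b at 0.040, and after cyclic loess Eif3f was at 0.0050. With 1 array left out, Eif1ad ran from -0.0020 to 0.058, Eif2b5 from -0.13 to 0.13, Eif2s2 from -0.084 to 0.0076, Eif2s3y from -0.015 to 0.16, Eif3c from -0.0029 to 0.036 and Eif3f from -0.069 to 0.0030. Likewise Eif3k ran from -0.062 to 0.055, Eif4a3 from -0.035 to 0.067, Eif4a3l1 from -0.048 to 0.17 and Eif4e1b from -0.23 to 0.074, and Mknk1 was at 0.030 without pLKO replicate 1. The cause of these changes was not tested. The within-array ratios, whose alternatives were chosen after seeing the data, kept their sign after cyclic loess and without each array. No paired analysis was made because the labels state no pairing between the groups.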
